A study of Mus musculus with 24 samples.

Results

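The arrays taken from 36 to 50 h after a serum shock were compared as consecutive windows, with 36, 38, 40 and 42 h (4 arrays) set against 44, 46, 48 and 50 h (4 arrays). These 8 arrays belong to a time series of 24 in the immortalized mouse hepatocyte line MMH-D3, with 1 Affymetrix array every 2 h from 12 to 58 h. All cells had been differentiated for 14 days in medium with 2% DMSO and then given a serum shock, a short exposure to serum that sets the circadian clocks of a culture to a common phase. The labels name no other treatment and set the windows apart by the hours since the shock. The description of the 40 h array alone carries the suffix _2, which the labels do not explain. The probe sets described are those outside the Affymetrix controls with a log2 value of 5 or more on at least 4 of the 8 arrays, which held for 18385 of the 45101 in the table. They represented 9775 of the 18193 genes named on the array, each by its probe set of highest mean. The 4 arrays of a window stand in for replicates, and the labels do not state whether separate cultures were used. The p-values therefore measure the scatter of 4 consecutive arrays, which holds both technical error and change within a window.

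Many of the largest rises were in genes of the amino acid arm of the integrated stress response. In this pathway, kinases that sense amino acid shortage, endoplasmic reticulum stress or oxidative damage phosphorylate the initiation factor eIF2, which slows most translation but favours that of the transcription factor ATF4. ATF4 pairs with C/EBP-family partners at composite C/EBP-ATF elements and induces amino acid transporters, enzymes of serine, asparagine and one-carbon metabolism, tRNA synthetases and the factors CHOP (Ddit3) and ATF3. Hepatocytes use the same program when dietary protein is short.

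Between the windows, 1037 of the 9775 genes rose (10.6%) and 594 fell (6.08%) in limma's moderated test with a Benjamini-Hochberg adjusted p under 0.05. A log2 difference of 1 or more was reached by 133 of the risen genes (1.36%) and 66 of the fallen (0.675%). By probe set, 1878 rose (10.2%) and 994 fell (5.41%), of which 269 (1.46%) and 105 (0.571%) did so by 1 or more. This split moved with scaling, since 1491 rose and 1608 fell with each array centred on its median, and 1652 rose and 1595 fell after quantile normalization. The median difference over the kept probe sets was 0.05 as deposited, -0.02 centred and -0.01 after quantile normalization. Of 66 measured genes in 4 lists of amino acid genes (ATF4 and CHOP regulators and targets; serine, asparagine and folate enzymes; amino acid transporters; cytosolic tRNA synthetases), 53 rose and 0 fell, and 37 of the 53 rose by 1 or more. Those 37 made up 27.8% of the 133 genes that did so. The counts include Aldh1l2, Slc7a11 and Stc2, which passed the filter only through the late window.

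The promoters of the genes of the 4 amino acid lists are shown first, searched for the letters of the C/EBP-ATF element close to the start. RefSeq windows of 250 bases before to 50 after the start (GRCm38.p6) were searched on both strands for TGATGNAA. The letters occurred in the windows of 16 of 42 risen members of the 4 lists that had a window (38.1%), against 1219 of 27025 genes (4.5%) and 206 of the 8024 measured genes with a window (2.6%). The lists were chosen with earlier results of these data known, and 1 is made of ATF4 and CHOP regulators and targets. A high share in them was therefore in part built in. Of the genes that rose by 1 or more, list members included, 19 of 107 held the letters (17.8%), and of those that fell by 1 or more, 2 of 55 (3.6%). The share among risen genes outside the lists was not computed. A match describes the letters and not a bound site. Below, stretches upstream of the start are given 5′ to 3′ on the gene's own strand, with every match in the stretch in capitals, for the 6 risen members of largest difference that held one there; TTGCATCA and TTTCATCA are the element read on the opposite strand.
Chac1 (chr2:119351009-119351096, plus strand): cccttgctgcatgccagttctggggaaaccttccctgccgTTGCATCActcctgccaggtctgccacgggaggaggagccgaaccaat
Slc7a11 (chr3:50443632-50443719, minus strand): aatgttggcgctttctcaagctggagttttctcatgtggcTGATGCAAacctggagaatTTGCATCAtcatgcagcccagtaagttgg
Asns (chr6:7693210-7693272, minus strand): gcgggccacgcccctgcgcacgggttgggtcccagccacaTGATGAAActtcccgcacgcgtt
Atf3 (chr1:191183396-191183483, minus strand): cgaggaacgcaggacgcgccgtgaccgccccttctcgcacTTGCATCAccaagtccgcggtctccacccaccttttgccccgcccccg
Nupr1 (chr7:126625533-126625620, minus strand): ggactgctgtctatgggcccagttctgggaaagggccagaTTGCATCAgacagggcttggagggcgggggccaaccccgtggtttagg
Gars (chr6:55037931-55038000, plus strand): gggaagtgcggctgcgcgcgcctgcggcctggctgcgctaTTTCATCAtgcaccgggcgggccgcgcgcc

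The E-box CACGTG, which clock and MYC-family factors can bind, stood in 7 of the 42 windows (16.7%), in 12.4% of those of measured genes and in 8.1% of all. By list it stood in 4 of 9 cytosolic synthetases and 1 of 18 ATF4 and CHOP genes. It stood in 1 of 10 serine, asparagine and folate enzymes and 1 of 7 transporters. The antioxidant response element TGACNNNGC, the site of the oxidative stress factor NRF2, stood in 14 of the 42 (33.3%). It stood in 17.2% of the windows of measured genes and in 14.0% of all. Of the 107 genes with a window that rose by 1 or more, 18 held the E-box (16.8%) and 28 the antioxidant element (26.2%). The sterol element TCACNCCAC was found in 1 of 11 fallen cholesterol genes, Hmgcs1, and in 1.4% of all windows. Matches of different motifs can overlap, and all shares are descriptions without a test.

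All 20 measured regulators and targets of ATF4 and CHOP rose, with a median log2 difference of 1.12 against 0.04 over all genes, and 14 of them rose by 1 or more. Chac1, an enzyme that degrades glutathione, had the largest change of any gene named here. Its log2 values were 5.68, 5.68, 5.68 and 5.90 from 36 to 42 h and 11.38, 11.63, 11.26 and 11.22 from 44 to 50 h. The windows did not overlap, and the highest array was that of 46 h. The exact value 5.681 recurs on 7 of the 24 arrays, 3 of them in the early window, so the early level may be a background estimate. A lower value, 5.567, occurs at 32 h. The early level is read as an upper bound, and the log2 difference of 5.64 between the window means as a lower bound. Among the other genes named, a value recurs on 4 or more arrays for Slc7a11 (8 arrays), Cdyl2 (7), Aldh1l2 (6), Snai2 (5) and Stbd1 (4). In the early window it stood on 3 arrays for Cdyl2 and on 1 for each of the others. Each also had values below the recurring one, down to 2.768 against 3.925 for Slc7a11 and 6.801 against 7.391 for Snai2. Whether their early levels are background estimates was not tested, so the size of their rises is read with caution. Trib3, a pseudokinase that restrains ATF4, stood at 6.69, 6.49, 6.40 and 6.57 and then at 10.82, 11.58, 11.41 and 11.27, a rise of 4.74 ± 0.15 (limma adjusted p 3.06e-07). Its other probe set rose by 5.57.

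The transcription factors of the pathway moved less than Chac1 and Trib3. Against the list's median of 1.12, Atf3, Ddit3 and Atf5 rose by more, Atf4 by about as much and Cebpb by less. Atf4 itself measured 11.65, 11.80, 11.38 and 11.43, then 12.64, 12.73, 12.78 and 12.67, a rise of 1.14 ± 0.09 (limma adjusted p 0.000111). Ddit3, which encodes CHOP, measured 9.86, 10.04, 10.34 and 10.08, then 11.94, 12.38, 12.26 and 12.01, a rise of 2.07 ± 0.12. Both were already near their later level on the 44 h array, and both were picked out here after their values were seen. Atf3 was slower, at 7.91, 8.13, 7.99 and 7.83 and then 9.69, 10.82, 10.76 and 10.33 (rise 2.44 ± 0.22, limma adjusted p 0.000183). Nupr1, a stress-inducible chromatin protein, rose by 2.32, Atf5 by 2.03, and Eif4ebp1, a translation repressor restrained by mTOR, by 1.10. The smallest rises of the list were those of Cebpb (0.38) and Ddit4 (0.48), and Fgf21, a secreted target, stayed below the filter with window means of 2.20 and 2.93.

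Of 15 measured enzymes of serine, asparagine and folate metabolism, 12 rose, 0 fell and 3 were not called, with a median difference of 1.77. The mitochondrial folate enzyme Mthfd2 stood at 8.91, 8.93, 8.51 and 8.92, then at 11.96, 12.22, 12.29 and 12.01, a rise of 3.30 ± 0.12 (limma adjusted p 3.31e-07). Asns, asparagine synthetase, stood at 10.42, 10.54, 10.27 and 10.20, then at 12.93, 13.24, 13.18 and 13.22, a rise of 2.79 ± 0.10 (limma adjusted p 3.24e-07). For both genes every later array lay more than 2 log2 units above every earlier one. Cth, which makes cysteine from cystathionine, was at 7.58, 7.04, 7.07 and 7.27, then at 9.39, 11.65, 11.03 and 11.51, so that the 44 h array lay between the windows' other values. Aldh1l2, the mitochondrial formyl-folate dehydrogenase, was dim before (2.65 to 2.95) and read 6.44, 9.15, 8.59 and 9.19 after. The 3 enzymes of serine synthesis also rose, Phgdh by 2.43, Psat1 by 1.36 and Psph by 2.59. The uncalled members were the cytosolic folate enzymes Mthfd1 (0.12) and Shmt1 (-0.39) and the cystathionine synthase Cbs (-0.56), while the mitochondrial Shmt2 rose by 1.77.

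Among 15 measured amino acid transporters 10 rose and 0 fell, with a median difference of 0.98. Slc7a5, which carries large neutral amino acids, stood at 8.53, 8.55, 8.51 and 9.05, then at 11.80, 12.15, 11.87 and 11.71, a rise of 3.22 ± 0.14 (limma adjusted p 1.55e-06). Its partner subunit Slc3a2 rose by 1.81. Slc7a11, the cystine importer that shares this subunit, was below 5 before, at 3.90, 3.93, 2.77 and 3.87, and read 7.07, 8.37, 8.38 and 8.27 after. Slc6a9, a glycine transporter, stood at 7.16, 7.35, 7.51 and 7.34, then at 9.97 to 10.64, with the 46 h array highest. Slc1a4, which carries alanine, serine and cysteine, rose by 2.34, the arginine transporter Slc7a1 by 1.33, and Slc38a2 by 0.98. Not called were Slc1a5 (0.34), Slc7a6 (0.25), Slc36a4 (0.07), Slc7a7 (-0.14) and Slc3a1 (-0.76).

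Cytosolic aminoacyl-tRNA synthetases, which charge tRNAs for translation in the cytosol, rose for 14 of 19 genes with a median of 0.97, whereas 2 of 15 mitochondrial ones rose (1 without the 38, 40, 46, 48 or 50 h array), with a median of 0.13. The largest rise was that of Yars, at 8.04, 8.03, 8.14 and 8.36 and then 9.57, 9.91, 9.57 and 9.71 (1.55 ± 0.11, limma adjusted p 4.66e-05). Gars stood at 11.24, 11.31, 11.17 and 11.51, then at 12.44, 12.44, 12.46 and 12.43. The later arrays were nearly level and all lay above the earlier ones. Lars, Eprs, Iars, Aars, Nars, Mars1 and Sars rose by 1.01 to 1.40. The cytosolic members without a call were Vars (0.60), Kars (0.09), Farsa (0.08), Hars (0.05) and Qars (-0.00), and the mitochondrial ones with a call were Ears2 (0.66) and Nars2 (0.51). The 2 lists differed in counts, but no test set one against the other.

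**Figure D1:**
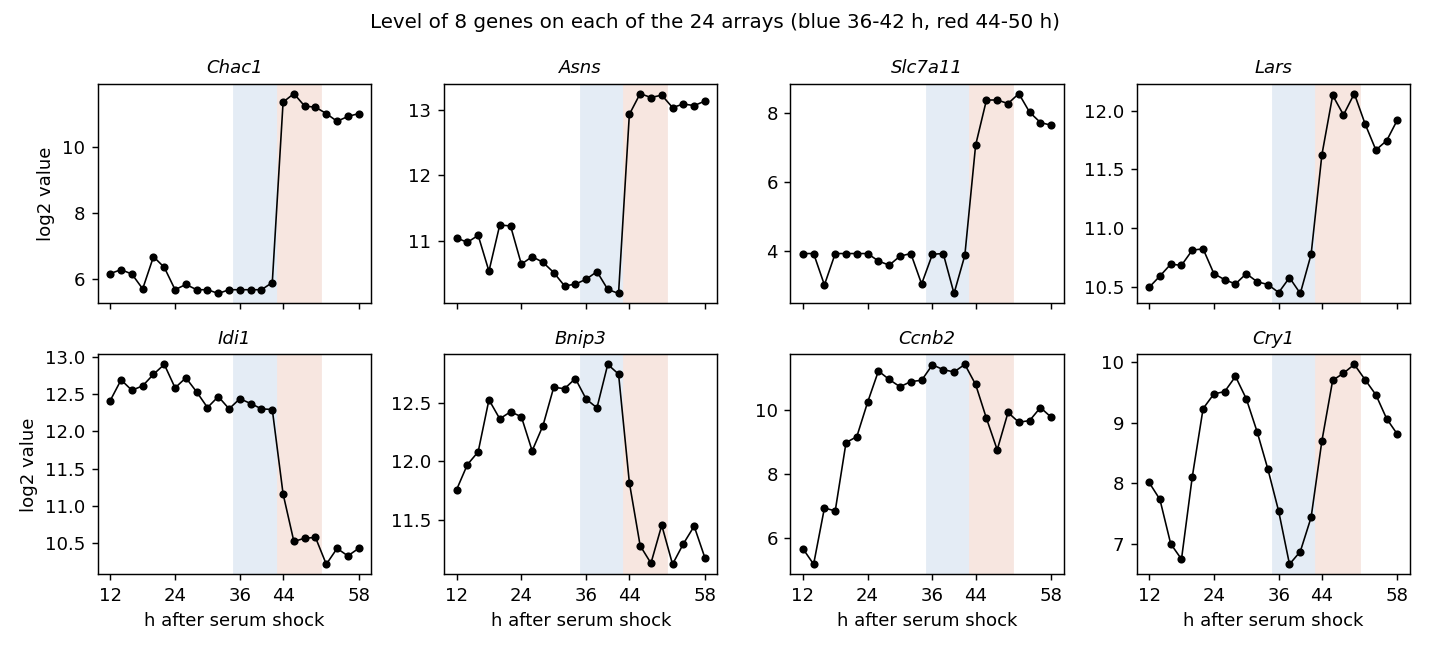
Log2 level (vertical axes, each panel with its own range) of 8 genes on each of the 24 arrays against hours after serum shock, with the 36-42 h window shaded blue and the 44-50 h window red; each point is 1 array. Chac1, Asns, Slc7a11 and Lars went up between 42 and 44 h and stayed up to 58 h, Idi1 and Bnip3 went down, Ccnb2 had climbed on the day before, and Cry1 moved up at both passages of the same hours.

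Ribosome biogenesis genes, which build ribosomes in the nucleolus, rose for 31 of 47 members with a median of 0.57 and none fell. Rrp12, a processing factor, stood at 6.55, 6.29, 5.64 and 6.30, then at 7.12, 7.69, 7.77 and 7.24, a rise of 1.26 ± 0.22 (limma adjusted p 0.0064). Myc, a transcription factor known to drive many of these genes, was at 10.08, 10.23, 10.16 and 10.14 and then at 11.16, 11.58, 11.46 and 11.34 (rise 1.23 ± 0.09, limma adjusted p 6.24e-05). The cytosolic ribosomal proteins did not share this shift, with 1 of 43 called higher (Rpl12, 0.86) and a median of 0.02. Of 39 initiation and elongation factors 9 rose and 0 fell, among them Eif2s2, a subunit of eIF2 (0.64), and Eif2b3, a subunit of its exchange factor (0.97). Of 23 p53 targets 11 rose and 1 fell, but 5 to 7 rose and 0 fell without any 1 of the 36, 38, 40, 46, 48 and 50 h arrays (6 and 0 without the 40 h array), and 6 rose and 2 fell with centring. Gadd45a, a stress sensor also known as an ATF4 target, led them with 10.54, 10.49, 10.21 and 10.19 and then 12.23, 12.93, 12.58 and 12.59, while Cdkn1a, the main p53 target that halts the cell cycle, differed by -0.02.

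Other stress programs were mixed. Of 26 endoplasmic reticulum chaperones and unfolded protein response genes 5 rose and 2 fell, with a median of 0.02: the sensor Ern1 rose by 1.14 and Herpud1 by 0.68, while Calr fell by 0.51 and Sdf2l1 fell by 0.58. Of 21 targets of NRF2 and thiol redox genes 4 rose and 4 fell, and without Slc7a11 no rise among them exceeded 0.55 (Abcc4). Heat shock genes rose for 3 of 16 and fell for 3, with the mitochondrial chaperone Hspa9 up by 1.01 and Hspa1b down, a difference of -0.58. Of 21 NF-kappaB feedback and chemokine genes 5 rose and 0 fell, Cxcl10 by 1.43 and Cxcl2 by 0.82. These small counts moved with single arrays: the risen members numbered 8 for the endoplasmic reticulum list without the 44 h array, 2 for the NRF2 list without the 38 or the 46 h array, 1 for heat shock genes without the 40, 46, 48 or 50 h array, and 3 for the NF-kappaB list without the 36, 40 or 48 h array and 2 without the 46 h array. The fallen heat shock genes numbered 1 without the 46 or the 48 h array.

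Several of the largest rises lay outside these lists. Stbd1, a glycogen-binding protein, stood at 5.93, 5.43, 4.23 and 5.43, then at 8.33, 9.87, 9.72 and 9.46, a rise of 4.09 ± 0.40 (limma adjusted p 0.000318). Snai2, a transcriptional repressor of epithelial genes, stood at 7.47, 7.39, 6.80 and 7.27, then at 9.90, 11.02, 10.87 and 10.94, a rise of 3.45 ± 0.25 (limma adjusted p 4.63e-05). Angptl8, a secreted regulator of lipoprotein lipase, stood at 6.69, 6.78, 6.45 and 6.64, then at 9.20, 9.40, 9.56 and 9.24. In all 3 the windows did not overlap, and Angptl8 had reached 0.93 of its later rise at 44 h, against 0.69 for Stbd1 and 0.72 for Snai2. Socs2, a brake on growth hormone signalling, rose by 2.62, and Klf15, a glucocorticoid-responsive factor of amino acid breakdown, by 1.54.

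In 18 genes, Aldh1l2 and Slc7a11 among them, the level was below 5 on all 4 early arrays and 5 or more on all 4 late ones. They passed the filter on low values only through the late window, so no count of calls is read from them as a group. The counts over all genes and over lists do include them. Aldh1l2 counts among the serine, asparagine and folate enzymes, Slc7a11 among the transporters and NRF2 targets, and Stc2 among the ATF4 and CHOP genes. For these members the filter itself favoured a rise. The brightest of the others were Lhfpl2 (3.43 to 3.77, then 5.95 to 8.51), the secreted glycoprotein Stc2 (4.34 to 4.63, then 6.03 to 6.48), Snhg17 (4.13 to 4.68, then 5.81 to 6.64) and Cdyl2 (3.64 to 4.78, then 5.66 to 6.05). Values under 5 are dim, so their size is read here as a level and not ranked as a fold. In the other direction were 2 genes, 2900009J06Rik (5.16 to 6.07, then 3.94 to 4.20) and a probe set of the thymidylate synthase gene Tyms (5.00 to 5.83, then 4.27 to 4.71).

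Cholesterol synthesis genes fell for 14 of 18 members and rose for 0, with a median of -0.78. These enzymes lead from acetyl-CoA through mevalonate and squalene to cholesterol and are driven together by the factor SREBP2. Idi1, which isomerizes isopentenyl diphosphate, stood at 12.44, 12.37, 12.30 and 12.29, then at 11.16, 10.52, 10.56 and 10.57, a difference of -1.65 ± 0.13 (limma adjusted p 9e-05). Dhcr7, which makes cholesterol from its last precursor, stood at 8.95, 8.88, 8.78 and 9.001, then at 8.09, 7.53, 7.44 and 7.54 (-1.25 ± 0.14, limma adjusted p 0.00081). In both genes the 44 h array lay between the earlier window and the 3 later arrays. Fdps (-1.19) and Nsdhl (-1.16) fell likewise, and uncalled were Mvk (-0.62), Hsd17b7 (-0.37), Pmvk (-0.28) and Ggps1 (0.29). Of 9 sterol-sensing genes, Srebf2 (-0.64), Insig1 (-1.20) and the sterol carrier Stard4 (-1.34) fell, and Npc1, which exports cholesterol from lysosomes, rose by 1.26. Of 15 fatty acid synthesis genes 6 fell and 0 rose, led by the desaturases Fads2 (-1.50) and Scd2 (-1.08), with Srebf1 at -0.76.

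Mitotic genes lay lower on average for 33 of 33 members, with a median of -0.96, and 22 of them fell. Ccnb2, cyclin B2, stood at 11.40, 11.25, 11.18 and 11.41, then at 10.79, 9.73, 8.76 and 9.92, a difference of -1.51 ± 0.34 (limma adjusted p 0.0173). Aurkb, a kinase of chromosome segregation, stood at 10.36, 10.17, 10.21 and 10.29, then at 9.28, 8.61, 7.73 and 9.05 (-1.59 ± 0.28, limma adjusted p 0.0068). The list's median level was 10.20, 10.14, 9.53 and 9.97 on the early arrays and 9.37, 8.69, 7.78 and 9.06 on the late ones, so the 48 h array was lowest and the 50 h array higher again. DNA replication genes fell for 9 of 38 members with a median of -0.33, among them Tk1 (-0.93) and Fen1 (-0.87). In RNA from a whole culture, fewer dividing cells and less mitotic RNA per cell cannot be told apart. The calls here were fragile. With each array left out in turn the mitotic genes called lower numbered 3 (without the 46 h array) to 27 (without the 44 h array), with 10 without the 36, the 38 or the 42 h array and 14 without the 50 h array. Without both the 40 and 42 h arrays the number was 0, where 26 of 33 still had an unadjusted limma p under 0.05. DNA replication genes called lower numbered 3 to 10 with each array left out, 3 without the 42 or the 46 h array and 5 without the 36 h array, and 1 without both the 40 and 42 h arrays.

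Glycolytic genes fell for 10 of 20 members and rose for 1, with a median of -0.35, and other targets of hypoxia-inducible factors fell for 10 of 20 and rose for 4, also with a median of -0.35. Slc16a3, which exports lactate, stood at 10.48, 10.52, 10.77 and 10.63, then at 9.59, 9.11, 9.19 and 8.60, a difference of -1.48 ± 0.18 (limma adjusted p 0.00109). Bnip3, a mitophagy receptor, stood at 12.53, 12.46, 12.83 and 12.75, then at 11.82, 11.28, 11.13 and 11.45 (-1.22 ± 0.14, limma adjusted p 0.000969). Adm (-1.22), Ak4 (-1.16), Ankrd37 (-1.15) and Aldoc (-1.12) fell by similar amounts. The hypoxia list did not move as one, since Ero1a (0.59), Hif1a (0.50), Vegfa (0.48) and Ddit4 (0.48) rose. Of 61 subunits of oxidative phosphorylation 15 fell and 1 rose, by small amounts (median -0.16). With each array centred on its median 24 fell, and without the 46 h array 9.

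**Figure D2:**
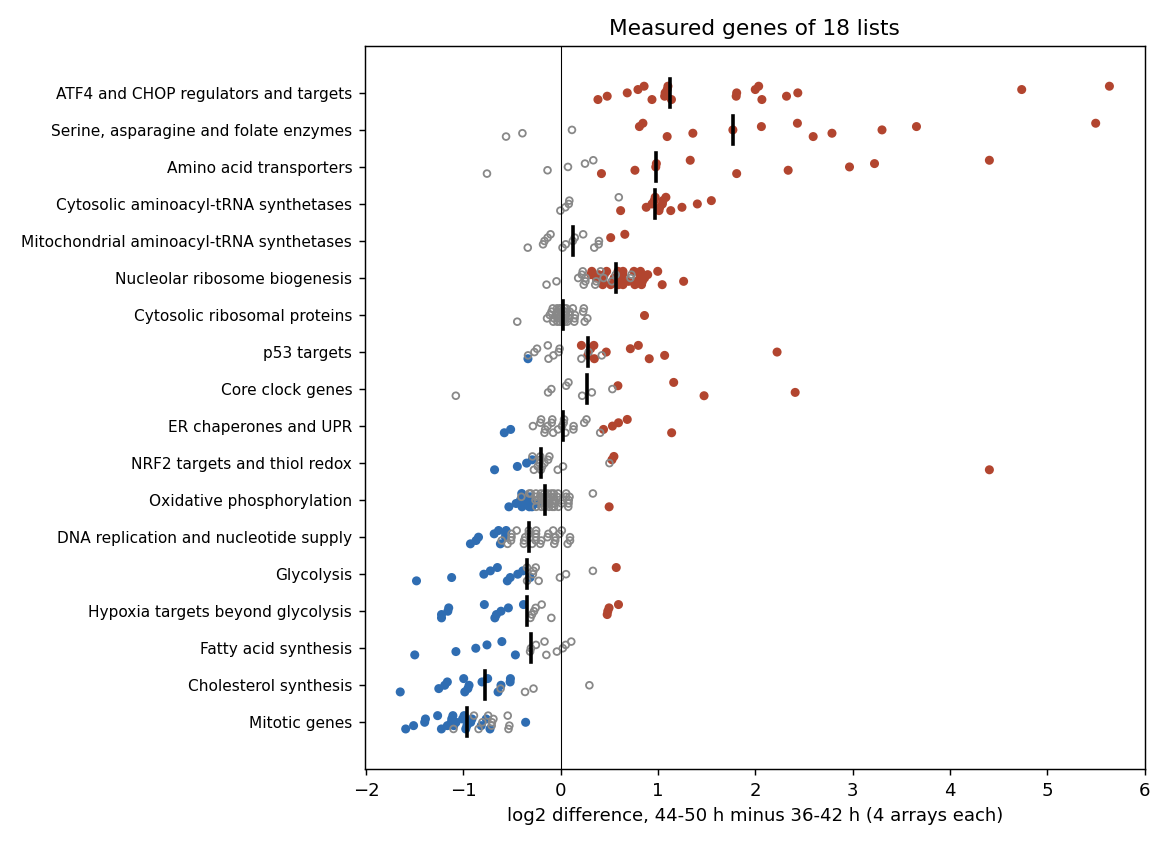
Log2 difference (44-50 h minus 36-42 h, 4 arrays each) for every measured gene of 18 lists; filled points passed the limma threshold (red higher, blue lower), open points did not, and the black bar is the list's median. The 4 amino acid lists lie to the right with medians from 0.97 to 1.77, and cholesterol synthesis (-0.78) and mitotic genes (-0.96) lie to the left.

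Other large falls included Mxd3, a MYC antagonist of dividing cells, at 8.76, 7.99, 8.59 and 7.96 and then 6.89, 6.68, 6.20 and 6.43 (-1.78 ± 0.22, limma adjusted p 0.00111). ccdc198 stood at 7.58, 7.35, 7.31 and 7.21, then at 7.10, 5.34, 4.94 and 4.85 (-1.80 ± 0.43, limma adjusted p 0.022), so nearly all of its fall came after 44 h. Mgarp, a mitochondrial protein, fell by 1.72 and S1pr5, a sphingosine-1-phosphate receptor, fell by 1.70 on the log2 scale. Among single genes of liver function, Ttr (transthyretin) fell by 0.98, Sult1a1 (a sulfotransferase) by 1.43 and Mt1 (metallothionein) by 0.91, while Ahsg (fetuin-A) rose by 1.04. The call of Ahsg was lost without the 40 h array (limma adjusted p 0.0549). Of 9 plasma carriers 2 rose and 2 fell (median 0.11). Of 26 xenobiotic genes 1 rose and 4 fell (median -0.21), against 10.6% and 6.08% over all genes. Without both the 40 and 42 h arrays 0 members of these 2 lists were called.

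The 44 h array separates changes that were already complete from those that were not. For this, genes were chosen on the other 7 arrays (limma adjusted p under 0.05 and a difference of 1 or more), and the share of the change from the 36-42 h mean to the 46-50 h mean that the 44 h value had reached was computed. Of 164 genes that rose on this measure (1.68% of those tested), 55 had completed at least 0.75 of the change at 44 h, 98 were part-way and 11 had reached 0.25 or less, with a median share of 0.67. Of 123 that fell (1.26%), 9 were complete, 78 part-way and 36 at 0.25 or less, with a median share of 0.36. The limits cut through continuous ranges: 14 risen genes had shares from 0.70 to 0.75 and 15 from 0.75 to 0.80, and 9 fallen genes lay on each side of 0.25 within 0.05. Without the 40 and 42 h arrays the count of fallen genes at 0.25 or less was 19.

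Of the lists, the amino acid genes had high shares at 44 h. Of the 13 ATF4 and CHOP genes that qualified, 11 were complete at 44 h and 2 part-way, with a median share of 0.88. The median was 0.86 for 10 serine, asparagine and folate enzymes (7 complete), 0.87 for 8 transporters (6 complete) and 0.86 for 11 cytosolic synthetases (7 complete). Chac1 had reached 1.001 of its change, Slc7a5 0.97, Mthfd2 0.94 and Trib3 0.88, whereas Cth (0.52), Aldh1l2 (0.59), Atf3 (0.64) and Slc7a11 (0.73) were part-way. All 8 qualifying cholesterol genes were part-way, with shares from 0.51 to 0.72. Of 20 mitotic genes 19 were part-way and 1 at 0.25 or less, with a median of 0.32. Falls that were complete at 44 h included Adm (1.01), Ankrd37 (0.84), Ak4 (0.80) and Mxd3 (0.76), so 3 of the 4 qualifying hypoxia targets fell early.

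The changes of 0.25 or less at 44 h were mostly in genes outside these lists, with Foxm1 (0.23) the one member of the mitotic list and Aldoc (0.20) that of glycolysis. Pcsk6, a secreted proprotein convertase, was at 7.48 at 44 h, close to its earlier 6.85 to 7.42, and then at 9.14, 8.83 and 9.07. Adamts1, a matrix protease, was at 6.71 at 44 h and at 8.20, 8.45 and 8.12 afterwards, and it was not called between the windows (limma adjusted p 0.0831). Map1b, a microtubule-associated protein, climbed from 7.02 at 44 h to 9.34 at 50 h, and Ltbp1, a matrix protein that stores TGF-beta, from 6.77 to 8.25. Late falls included Aspm (7.13 at 44 h, then 5.85, 5.02 and 6.23) and Cdkn3 (7.99, then 6.68, 6.10 and 6.96), genes of dividing cells that are not on the mitotic list, beside Sult1a1 and ccdc198.

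**Figure D3:**
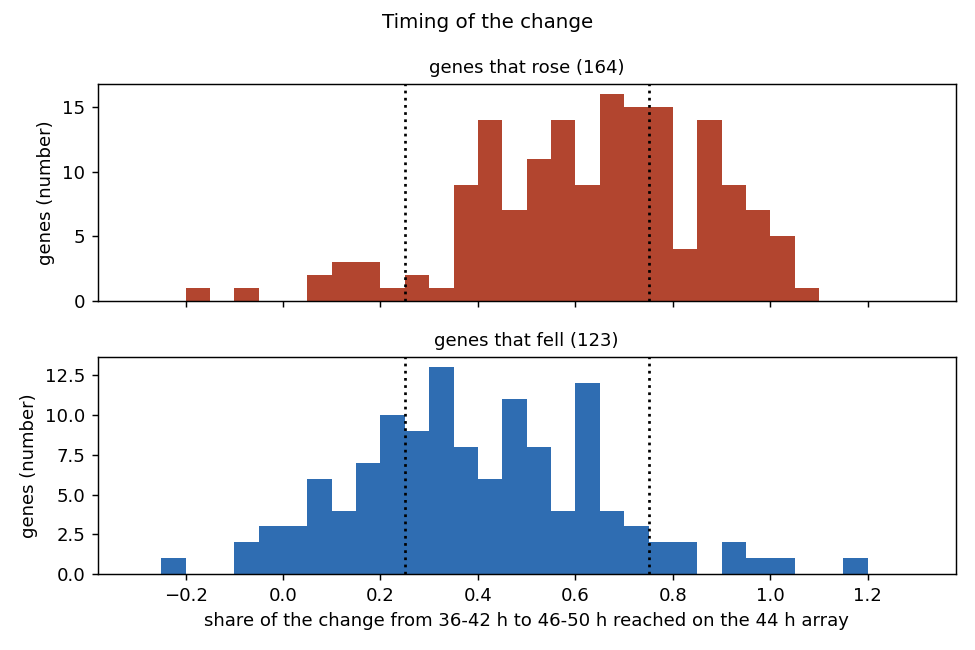
Number of genes (vertical axes) by the share of the change from 36-42 h to 46-50 h already reached on the 44 h array (horizontal axis), for 164 genes that rose and 123 that fell; dotted lines mark 0.25 and 0.75. Rises centre on a median of 0.67 and falls on 0.36.

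How sharp the passage from 42 to 44 h was can be set against the other intervals of the series. Over the kept probe sets, 334 differed by 1 or more between the 42 and 44 h arrays, 271 upward and 63 downward, which ranked 4 among the 23 intervals between neighbouring arrays. By the median absolute difference it ranked 2, at 0.209 against 0.214 from 40 to 42 h. More probe sets differed from 40 to 42 h (466, of which 406 upward), from 48 to 50 h (427) and from 38 to 40 h (384, of which 351 downward). Of the 351 that went down to 40 h, 164 were up again by 1 or more at 42 h, and 211 lay within 0.5 of their 38 h value there. The 44 h array correlated with those of 36 and 38 h at 0.9910 and 0.9913 over the kept probe sets, and the 40 and 42 h arrays at 0.9889 to 0.9901, so by this measure the 40 and 42 h arrays stood farther from 36 and 38 h than the 44 h array did. The rises at 44 h were kept to the end of the series: the median of the 133 genes that rose by 1 or more was 0.06 at 42 h, 1.03 at 44 h and 1.50 at 46 h relative to the 36-42 h mean, and still 1.26 at 58 h. These genes were chosen for the difference between the windows, so only their course outside 36 to 50 h is independent of the choice.

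**Figure D4:**
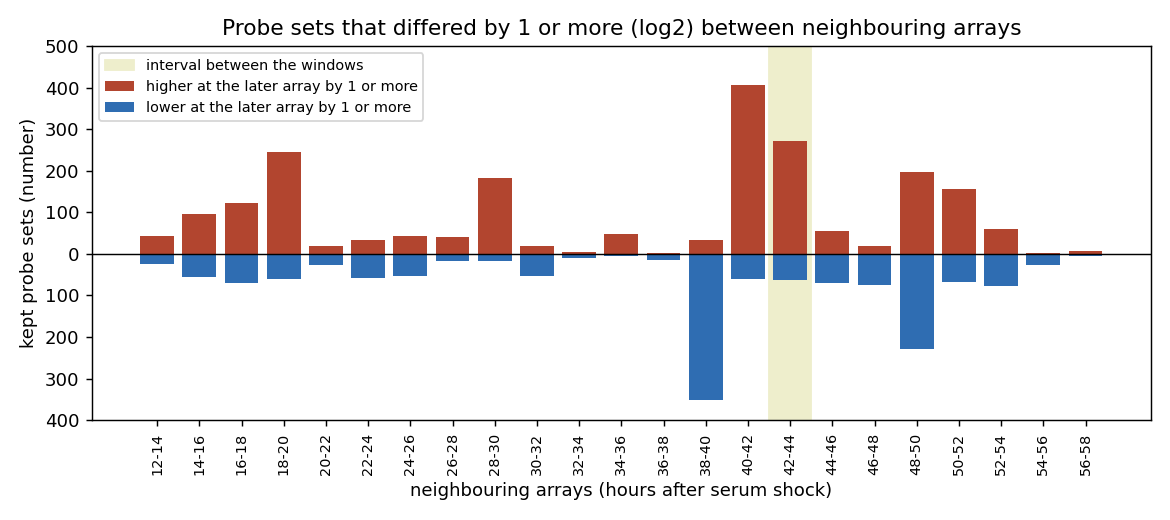
Number of kept probe sets that were higher (red, upward) or lower (blue, downward) by 1 or more on the later of each pair of neighbouring arrays, for all 23 intervals; the passage from 42 to 44 h is shaded. The interval to 40 h holds 351 downward, that to 42 h 406 upward, and the shaded interval holds 271 upward.

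A linear change over time, shared by both windows, was then added to the fit. This test asks for a jump beyond a steady slope, and most calls were lost, also among the amino acid genes. Called higher were 8 of 20 ATF4 and CHOP genes, 6 of 15 serine, asparagine and folate enzymes, 4 of 15 transporters and 2 of 19 cytosolic synthetases. Their median differences were 1.34, 1.71, 0.93 and 0.77, against 1.12, 1.77, 0.98 and 0.97 without the slope. Window and time run together over 8 consecutive arrays, and the standard error of Chac1 grew from 0.11 to 0.24. A lost call alone therefore does not show a slope. The test called 40 probe sets, all of them higher and 38 of them by 1 or more, and 0 lower. At an unadjusted limma p under 0.05, 1647 of the 18385 probe sets were higher and 734 lower, with 1 of 33 mitotic genes among the lower. The 40 belonged to 30 genes, of which 21 stood on the 4 amino acid lists (18 by the probe set that represents the gene). Chac1 kept a jump of 5.67 ± 0.24 (limma adjusted p 6.42e-05), Mthfd2 one of 3.34 ± 0.25 and Asns one of 2.81 ± 0.21, and Atf4, Ddit3, Nupr1, Psph, Shmt2, Slc7a5, Slc6a9, Slc3a2, Mars1 and Tars were also called. Outside the lists were Angptl8, Gadd45a, Socs2, Pck2, Slc25a33, Snhg5, Rnd1, Rassf10 and Dimt1. For no falling gene could a jump be told apart from a slope by this test, Idi1 and the mitotic genes included.

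Leaving out the 40 h array kept 1871 of the 2872 called probe sets, and 347 of the 374 that differed by 1 or more. Without it, 1277 probe sets rose and 733 fell. Leaving out both the 40 and 42 h arrays, an alternative chosen after seeing the data, kept 1123 and 263, with 0 changes of sign. The 4 amino acid lists kept most of their calls under both: the counts of risen members without the 40 h array were 19 (ATF4 and CHOP), 12 (serine, asparagine and folate), 9 (transporters) and 14 (synthetases), and without both arrays 19, 12, 7 and 14. Cholesterol synthesis kept 14 and then 10 falls, and glycolysis 6 and then 3. With each of the 8 arrays left out in turn, the ATF4 and CHOP genes called higher numbered 19 to 20, the serine, asparagine and folate enzymes 12, the transporters 9 to 11, the synthetases 13 to 15 and the ribosome biogenesis genes 22 to 35. Cholesterol genes called lower numbered 12 to 15 and glycolytic genes 4 (without the 46 h array) to 11, with 5 without the 48 h array and 6 without the 40 or the 50 h array. Without the 46 h array 808 probe sets rose and 323 fell, without the 48 h array 1023 and 467, and without the 50 h array 1127 and 529. In 2691 of the 2872 called probe sets the arrays of the windows did not overlap, which held for 23% of all kept probe sets. By gene, the late arrays all lay above the early ones for 1512 (15.5%) and below them for 870 (8.9%).

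Because the cells had been synchronized, part of any difference between such windows could be a daily swing. The windows lie 24 h after 12-18 h and 20-26 h, and the difference between the later pair was tested against that between the earlier pair over 16 arrays. It was positive for 1474 genes (15.1%) and negative for 924 (9.45%), or 2621 (14.3%) and 1571 (8.55%) probe sets. The test contains the 8 arrays of the main comparison, so a gene that rose there tends to be positive here, and only the earlier pair's own difference is independent. For the 133 genes that rose by 1 or more that difference had a median of -0.03, as over all genes, and 4 of them had also been higher by 1 or more on the first day, Cry1 by 1.70. For the 66 that fell by as much the median was 0.93, and 31 had been higher by 1 or more. Chac1 averaged 6.08 and 6.14 in the earlier pair, Trib3 6.74 and 6.67, and Asns 10.91 and 10.97. Over the 66 genes of the 4 amino acid lists the earlier difference had a median of 0.03, ran from -0.84 (Slc3a1) to 0.84 (Mthfd1l) and was under 0.5 either way for 60. The test called 19 of 20 ATF4 and CHOP genes, 11 of 15 serine, asparagine and folate enzymes, 10 of 15 transporters and 14 of 19 cytosolic synthetases as positive.

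Mitotic genes gave the widest contrast between the days. All 33 were called negative, with a median of -3.76, and the first day's climb makes up most of this difference. That climb had a median of 2.89, with 32 of the 33 higher by 1 or more, against -0.96 between the later windows. Ccnb2 went from 6.17 at 12-18 h to 9.90 at 20-26 h and reached 11.31 at 36-42 h before the lower mean of 9.80. Kif20a, a mitotic kinesin, went from 5.22 to 8.68 and later from 9.69 to 8.42. Their level at 44-50 h thus remained far above that at 12-18 h. Cholesterol genes were negative for 15 of 18, with Idi1 at 12.57 and 12.74 on the first day. Cd53, a tetraspanin of leukocytes, dropped on the first day from 7.37 to 5.94 and rose later from 5.96 to 8.62.

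Core clock genes rose in part at the same hours on both days. Of 12 measured core clock genes 4 rose (2 without the 40, the 46 or the 48 h array), but only Clock was called in the test against the day before (0.63, limma adjusted p 0.0361). Cry1, a repressor of the clock, stood at 7.54, 6.67, 6.88 and 7.44, then at 8.70, 9.70, 9.81 and 9.96, a rise of 2.41 ± 0.29 (limma adjusted p 0.00105). It had also gone from 7.38 to 9.08 a day earlier, and the difference of 0.71 ± 0.49 was not called (limma adjusted p 0.326). Per2 (5.93, 6.84, 6.65 and 7.48, then 8.22, 8.37, 8.27 and 7.93) differed from the day before by 0.04. Of 13 clock output genes 5 rose and 1 fell, and Nfil3, a repressor of clock-controlled genes that is also stress-inducible, rose by 1.88 and beyond the day before by 1.33 (limma adjusted p 0.0133), whereas Lonrf3 rose by 1.32 with 0.12 beyond the day before. Arntl, which encodes BMAL1, was at 8.40, 7.46, 6.92 and 6.86, then 7.997, 8.59, 8.75 and 8.96; its call (limma adjusted p 0.0435) was lost without the 40 h array (0.103).

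**Figure D5:**
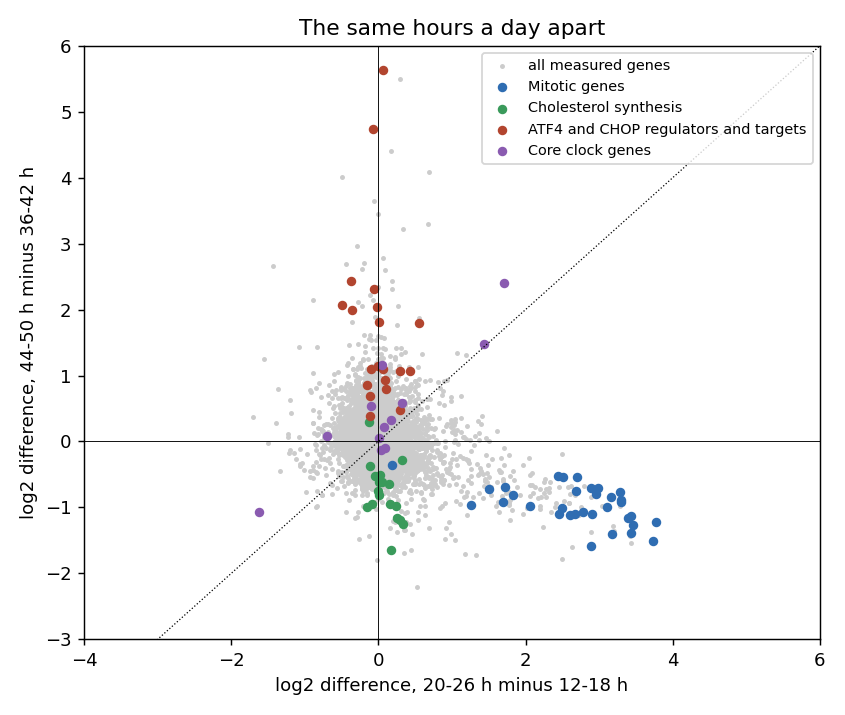
Log2 difference between 20-26 h and 12-18 h (horizontal) against that between 44-50 h and 36-42 h (vertical) for 9775 genes (grey) and 4 lists (coloured), each from 4 arrays a window; on the dotted line both days changed alike. ATF4 and CHOP genes lie high near 0 on the horizontal axis, mitotic genes lie far right and below 0, and Cry1 and Per2 lie near the line.

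Of 10 measured hepatocyte markers 1 rose (Ahsg) and 2 fell (Ttr, and Hnf4a by 0.39), with a summed log2 level from 113.54 to 116.54 in the early window and from 113.00 to 114.72 in the late one. With each array left out in turn, 0 to 1 of the markers rose and 1 to 4 fell (4 without the 44 h array). Alb, albumin, stood between 15.95 and 16.45 and then between 15.64 and 16.05. None of 4 bile duct markers (Krt7, Krt19, Sox9, Epcam) was called, and none of 3 measured macrophage markers (Cd68, Csf1r, Cd14). The summed level of the bile duct markers was 47.46 to 47.93 and then 46.52 to 47.96, and that of the macrophage markers 27.15 to 27.36 and then 26.36 to 27.63. Of 11 fibroblast and 7 endothelial markers 0 passed the filter, nor did Ptprc and Adgre1 of the macrophage list. Below the filter also lay 3 of 13 hepatocyte, 3 of 7 bile duct and, with those 2, 5 of 8 macrophage markers on the array. Signs of array quality moved with the windows in 1 case: the median over the kept probe sets was 8.98 to 9.15 early, with the 40 h array lowest, and 9.15 to 9.17 late (exact permutation p 0.0286, two-sided, the smallest that 4 against 4 allows). The share of values at the table's lowest value, 2.17, was 39.3 to 41.8% and then 41.6 to 42.1% (exact permutation p 0.0857). The 3′ minus 5′ log2 differences of the Gapdh and actin control probes gave exact permutation p of 0.229 and 0.257, and the part of these measures in the results was not tested.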

How the data were processed

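RNA of MMH-D3 cells was measured on 24 single-colour Affymetrix arrays, 1 per time, and 8 of them enter the main comparison. The authors deposited 1 table of log2 values, 1 row for each probe set, which the submitters' processing notes credit to GCRMA; version and settings are not given in the sources used here, and that the scale is log2 was read from the range of the values. GCRMA corrects background by probe sequence and normalizes arrays together, so a change in total RNA is not visible. Precision is limited by the number of arrays, and 41.1% of all values equal the lowest one, 2.17, which is only an upper bound.

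Genes were named from GEO's platform annotation: outside controls 34945 probe sets had 1 symbol, of which 34741 matched RefSeq, and probe sets with several symbols gave no name. Promoters of chromosome 18 were not used. Window means were compared with limma 3.58.1 in R 4.3.3 (lmFit, eBayes with an intensity trend), with Benjamini-Hochberg adjustment over the 18385 kept probe sets. The test was checked on simulated data. Lists are described by counts and medians. The windows, the members and the gene lists were chosen with earlier results of these data known. Named were the 10 largest rises and falls, up to 4 called members of each list, up to 4 per direction of each timing class and of the test against the day before, and up to 6 genes that crossed 5; list members named beyond this were chosen after their values were seen. Normalization, centring, filter, variance prior, drift, gene summary and left-out arrays were varied.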

Additional observations from a re-analysis of the deposited data

Results flagged for a closer look

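The difference between the windows differed from that at the same hours a day before for 2621 probe sets in the positive and 1571 in the negative direction, in limma's test over 16 arrays. The largest positive values among genes with a mean of 5 or more in each of the 4 windows were 5.58 for Chac1, 4.81 for Trib3, 4.10 for Cd53 and 3.71 for Cth. The largest negative ones were -5.24 for Ccnb2, -4.72 for Kif20a, -4.57 for Nusap1 and -4.55 for Depdc1a, all of them genes of dividing cells. Their climb on the first day enters these values. Ccnb2 rose by 3.73 and Depdc1a by 3.20 from 12-18 to 20-26 h, against -1.51 and -1.35 between the later windows.

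In 24 of 246 windows of 4 arrays examined for named genes and array measures, 1 array lay apart from the other 3 by Dixon's criterion. Independent values from 1 distribution meet it in about 1 of 20 windows. These windows hold consecutive times, and most genes were named for their change, so that rate is no yardstick for the count. The 44 h array was the one apart in 10, the 40 h array in 6 and the 42 h array in 4.

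At 44 h, values lay between the earlier window and the later arrays. Among rising genes this held for Slc7a11 (7.07, others 8.27 to 8.38), Snai2 (9.90, others 10.87 to 11.02), Cd53 (7.15, others 8.94 to 9.27), Heatr1 (7.96, others 8.69 to 8.74), Klf15 (6.69, others 7.21 to 7.26) and Klf9 (10.20, others 10.73 to 10.80). Among falling genes it held for Idi1 (11.16, others 10.52 to 10.57), Dhcr7 (8.09, others 7.44 to 7.54), Cdkn2c (7.51, others 6.90 to 6.999) and Aldoc (9.53, others 8.37 to 8.46).

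At 40 h, values were low for Slc7a11 (2.77, others 3.87 to 3.93), Cdyl2 (3.64, others 4.78), Mthfd2 (8.51, others 8.91 to 8.93), Eprs (10.26, others 10.63 to 10.66), Ears2 (6.54, others 6.73 to 6.77) and Klf10 (10.71, others 10.82 to 10.83). At 42 h, values were high for Slc7a5 (9.05, others 8.51 to 8.55), Chac1 (5.90, others 5.68) and Fdps (12.44, others 12.08 to 12.09), and low for Eif2s2 (13.31, others 13.60 to 13.64).

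At 48 h, the replication and cell cycle genes Ccne1 (6.97, others 7.79 to 7.94) and Rrm1 (10.36, others 11.07 to 11.10) were low. At 46 h, the heat shock gene Hspa1b (9.50, others 9.94 to 10.01) and the spiked-in cre control (15.40, others 15.60 to 15.63) were low.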

How the results depend on the processing

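Of 122 named genes called between the windows, 10 kept their call under each setting run, and 1 changed sign: Map1b stood at -0.011 with a shared linear drift. That drift left 40 probe sets higher and 0 lower (38 and 0 by 1 or more, and 24 and 0 genes). At an unadjusted limma p under 0.05 it left 1647 higher and 734 lower. Without the 40 and 42 h arrays 923 probe sets rose and 392 fell, 52 of the falls by 1 or more (534 and 222 genes). With no filter on low values 613 rose and 204 fell, 173 and 40 by 1 or more. With all 24 arrays in the fit 3734 rose and 2119 fell (2006 and 1250 genes). Falls numbered 1595 after quantile normalization (940 genes) and 1608 with centring (963 genes). A difference of 0.6 gave 782 and 346.

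With arrays left out in turn, probe sets that rose numbered 808 to 2065 and that fell 323 to 1314 (by 1 or more 203 to 339 and 64 to 197; genes 453 to 1125 and 197 to 794); the lowest came without the 46 h and the highest without the 44 h array. In the test against the day before, the ranges were 2039 to 2765 and 1287 to 1766 (by 1 or more 384 to 575 and 435 to 531; genes 1144 to 1533 and 756 to 1045).

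For timing, limits of 0.9 and 0.1 gave 21 rises and 5 falls complete at 44 h and 4 and 15 late; 1 limit at 0.5 gave 118 and 40 complete and 46 and 83 late. Choosing genes at 0.6 gave 139 and 25 complete, 327 and 217 part-way, and 39 and 85 late. Late falls numbered 19 without the 40 and 42 h arrays. The cause of these shifts was not tested. All tests compared unpaired window means, and the labels give no replicate numbers that link the windows. In the test against the day before, arrays 24 h apart could have been paired by hour, which was not done.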
